A study of Mus musculus with 6 samples.

Results

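The centromere, kinetochore and spindle checkpoint genes described here are 44 genes, chosen by symbol from the 15973 protein-coding genes of the authors' table. All 44 were present in the table and all 44 passed the filter on low counts, which kept 12572 genes. RNA-Seq was done on 4T1-T VM cells, a clonal line derived from the mouse mammary carcinoma line 4T1 that is proficient in vasculogenic mimicry, the formation of vessel-like structures by tumor cells. The cells were sorted by uptake of acetylated low-density lipoprotein (acLDL), a property of endothelial cells and some macrophages, to ask which genes differ with this endothelial-like trait. They were kept overnight in serum starvation medium, given Alexa-488 acLDL at 10 ug/mL for 4 hours and returned to complete growth medium for 1 hour, as the methods describe the uptake assay, and the 25% of cells with the most label (acLDL-high) and the 25% with the least (acLDL-low) were collected. Each group had 3 libraries, numbered as replicates 1 to 3, from sorts on 3 occasions. Both groups carried the same label, starvation and clonal background, and no unsorted or unlabelled cells were analysed here.

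The kinetochore is the protein structure that joins each chromosome to spindle microtubules. It is built on chromatin that holds the histone variant CENP-A, over which an inner layer, the constitutive centromere-associated network, and an outer layer that grips microtubules are stacked. Unattached kinetochores recruit the spindle checkpoint proteins, which hold the cell before anaphase until every chromosome is attached. Many of these genes are transcribed mainly in G2 phase and mitosis, and the promoters of such genes often hold a cell cycle homology region (CHR), bound by the DREAM and MMB complexes, near CCAAT boxes, bound by NF-Y.

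The libraries held between 70263372 and 94216786 counts, and the acLDL-high library was the larger in 2 of 3 pairs, a pair being the acLDL-low and acLDL-high libraries of 1 replicate number. The lowest count of any of the 44 genes in any library was 285, for Cenpp, and the highest was 39609, for Hjurp. The share of counts from mitochondrial genes ranged from 3.63% to 6.02% and was higher in the acLDL-high library in 3 of 3 pairs. Epithelial carcinoma markers summed to between 3021 and 5180 CPM (counts scaled to the library size) in acLDL-low cells and to between 3326 and 5464 CPM in acLDL-high cells. Their sum was higher in the acLDL-high library in 3 of 3 pairs, and none of the 8 was at 0. Of 10 macrophage markers, 7 were below 1 CPM and Adgre1 and C1qa had 0 counts, and their sum was 19.2 to 21.6 CPM in acLDL-low and 20.1 to 24.4 CPM in acLDL-high cells, higher in 3 of 3 pairs. Of these markers Cd14 passed the test described below, with a log2 fold change of 0.32 (edgeR adjusted p = 0.0246, higher in 3 of 3 pairs), and Cd68 did not, with -0.28 (0.201). The 8 endothelial markers summed to at most 2.64 CPM, with Erg and Emcn at 0. The 8 fibroblast markers summed to between 29.0 and 43.3 CPM, higher in the acLDL-high library in 3 of 3 pairs, but Pdgfra alone made up 28.1 to 42.8 CPM, 6 of the 8 were below 1 CPM, and Col3a1, Lum and Thy1 were at 0. The part of these markers and of the mitochondrial share in the results below was not tested.

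Promoters are shown for the 6 genes with the smallest p-values among those with a CHR match, since this element is known from many mitotic genes and all 44 genes had a positive estimate in the comparison below. Promoters, taken as 250 bases before and 50 bases after the RefSeq transcript start on GRCm38.p6, were matched by symbol for 39 of the 44 genes, and those of Ska1, Spc24, Incenp, Nsl1 and Zwilch were not analysed here. The motifs searched on both strands were TTTGAA and TTCGAA for the CHR, CCAAT for NF-Y, and TTTCGCGC and TTTGGCGC for E2F, and matches are in capitals. Each first line gives the 100 bases before the start, and each second line 30 bases around the CHR match, in the direction of transcription. The stretches before the start lie at chr2:69206214-69206313 for Spc25 (minus strand), chr5:30666786-30666885 for Cenpa (plus), chr1:189688087-189688186 for Cenpf (minus), chr7:131560270-131560369 for Bub3 (plus), chr2:119047019-119047118 for Knl1 (plus) and chr9:83834589-83834688 for Ttk (plus).
Spc25 before the start: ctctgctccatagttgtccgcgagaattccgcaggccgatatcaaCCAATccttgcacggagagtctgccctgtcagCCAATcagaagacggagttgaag
Spc25 around the CHR: ggcggtggagagTTTGAAattgaaagactg
Cenpa before the start: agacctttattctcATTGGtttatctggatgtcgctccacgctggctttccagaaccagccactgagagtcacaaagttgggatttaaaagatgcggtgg
Cenpa around the CHR: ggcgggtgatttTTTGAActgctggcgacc
Cenpf before the start: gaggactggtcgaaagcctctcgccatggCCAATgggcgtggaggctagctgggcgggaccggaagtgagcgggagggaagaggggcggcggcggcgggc
Cenpf around the CHR: ggcggcgggcagTTTGAAtcgctcgtgctg
Bub3 before the start: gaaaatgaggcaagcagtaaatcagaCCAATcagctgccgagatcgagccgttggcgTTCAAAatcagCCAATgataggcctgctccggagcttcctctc
Bub3 around the CHR: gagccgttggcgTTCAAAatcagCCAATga
Knl1 before the start: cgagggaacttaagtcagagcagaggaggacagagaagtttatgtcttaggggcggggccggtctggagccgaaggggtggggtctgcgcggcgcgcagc
Knl1 around the CHR: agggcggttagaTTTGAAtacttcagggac
Ttk before the start: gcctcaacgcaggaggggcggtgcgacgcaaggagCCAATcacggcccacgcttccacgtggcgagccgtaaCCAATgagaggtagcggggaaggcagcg
Ttk around the CHR: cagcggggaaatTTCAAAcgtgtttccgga

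A CHR match stood in the promoters of 22 of 39 genes (56.4%), against 16.1% of the 9851 tested genes with a promoter and 21.7% of all 27025 genes in the table of RefSeq promoters used. The CHR match began at position 25 in Spc25, counting the first transcribed base as 1, at 17 in Cenpa, 3 in Cenpf, 32 in Knl1 and 8 in Ttk, whereas in Bub3 it lay at -43, between CCAAT boxes at -74 and -32. A window of 50 bases on each side of the start, chosen after these positions were seen, held a CHR match in 17 of 39 genes (43.6%) and in 4.27% of the tested genes. CCAAT was found for 28 of 39 genes (71.8%, against 43.3% of tested genes), and CHR and CCAAT together for 17 (43.6%, against 6.87%). An E2F match was found in 1 promoter, that of Cenpl (2.56%, against 1.80%). In Kntc1 and Cenpw the CHR and CCAAT matches share bases. A match describes the letters in these windows and is not evidence that a factor binds there.

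**Figure D1:**
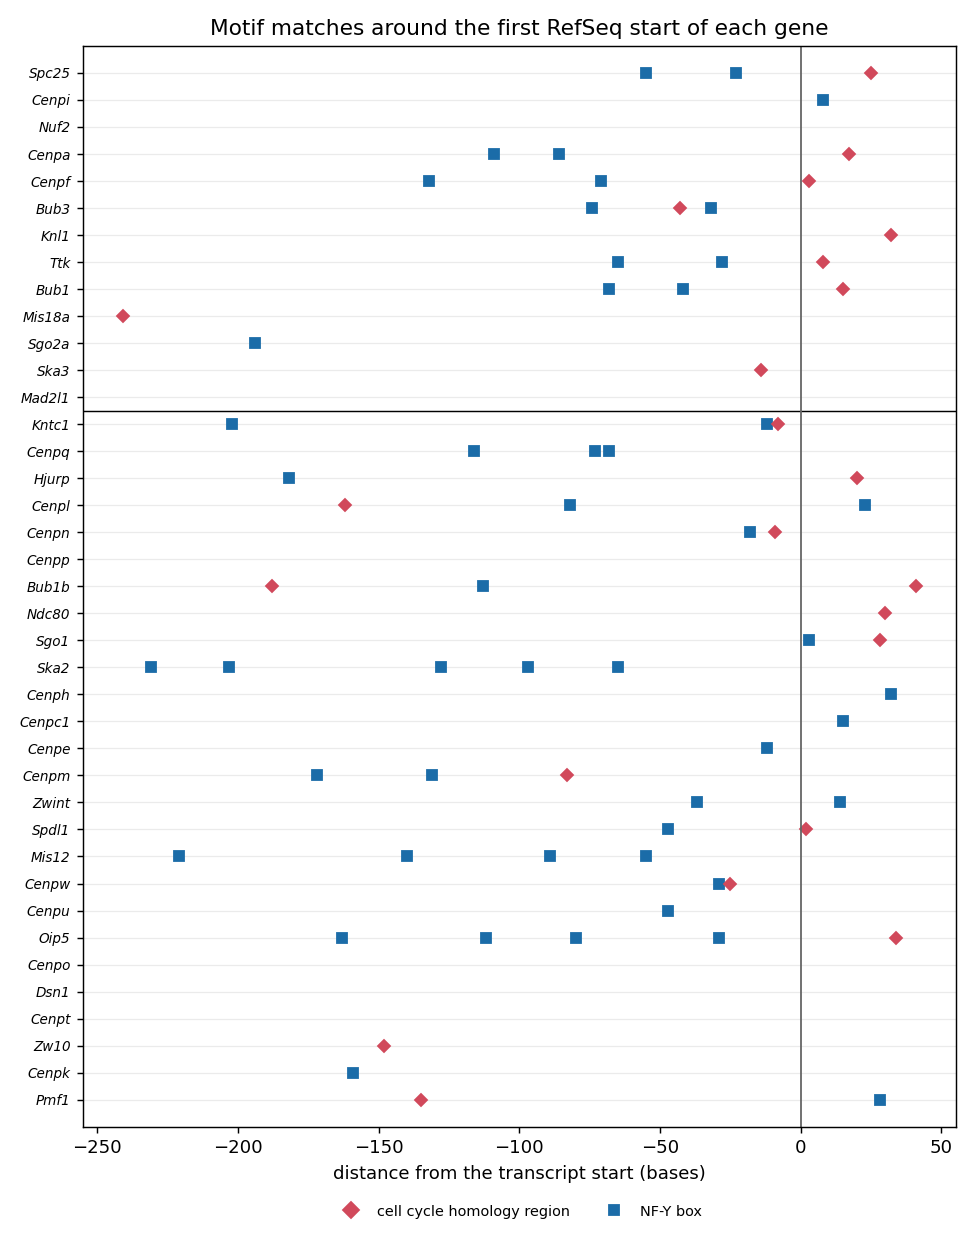
Positions of CHR matches (diamonds) and CCAAT matches (squares) around the first RefSeq transcript start of each of 39 genes, in bases from the start. Genes above the black line passed the test between acLDL-high and acLDL-low cells and genes below it did not, each ordered by p-value; most CHR matches gather within 50 bases of the start.

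All 44 genes had a higher estimated level in acLDL-high cells, and 15 of them passed the test, all upward (34.1%). Over all 12572 genes tested, 4.75% passed in either direction, 3.43% passed as higher and 50.6% had a positive log2 fold change. With libraries scaled by their totals, 41 of the 44 were positive and Cenpt, Pmf1 and Zw10 fell just below 0. The median log2 fold change of the 44 was 0.19, or 13.7% higher, against 0.0017 for all genes tested, so that the differences were small and mostly in 1 direction. In 28 of the 44 the acLDL-high library was higher in all 3 pairs, against 20.9% of all genes. In bulk RNA, fewer cells of a type, such as cells in mitosis, and less RNA per cell cannot be told apart. Calls were made at an adjusted p under 0.05 in edgeR's quasi-likelihood test, in which libraries were blocked by replicate number, after Benjamini-Hochberg adjustment over the 12572 genes.

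Those calls rested on the pairing of libraries by replicate number and on replicate 3. No label states that a number is an occasion, although libraries of the same number deviated together. Without the block, edgeR called 0 of the 44 and 0 of 12329 genes, with 1 of the 44 and 45 of all genes at an unadjusted p under 0.05. Without replicate 3, 1 of the 44 genes, Spc25, was called, while 24 were called without replicate 1 and 20 without replicate 2. The calls over all genes went from 597 to 126 without replicate 3, and were 646 without replicate 1 and 869 without replicate 2.

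**Figure D2:**
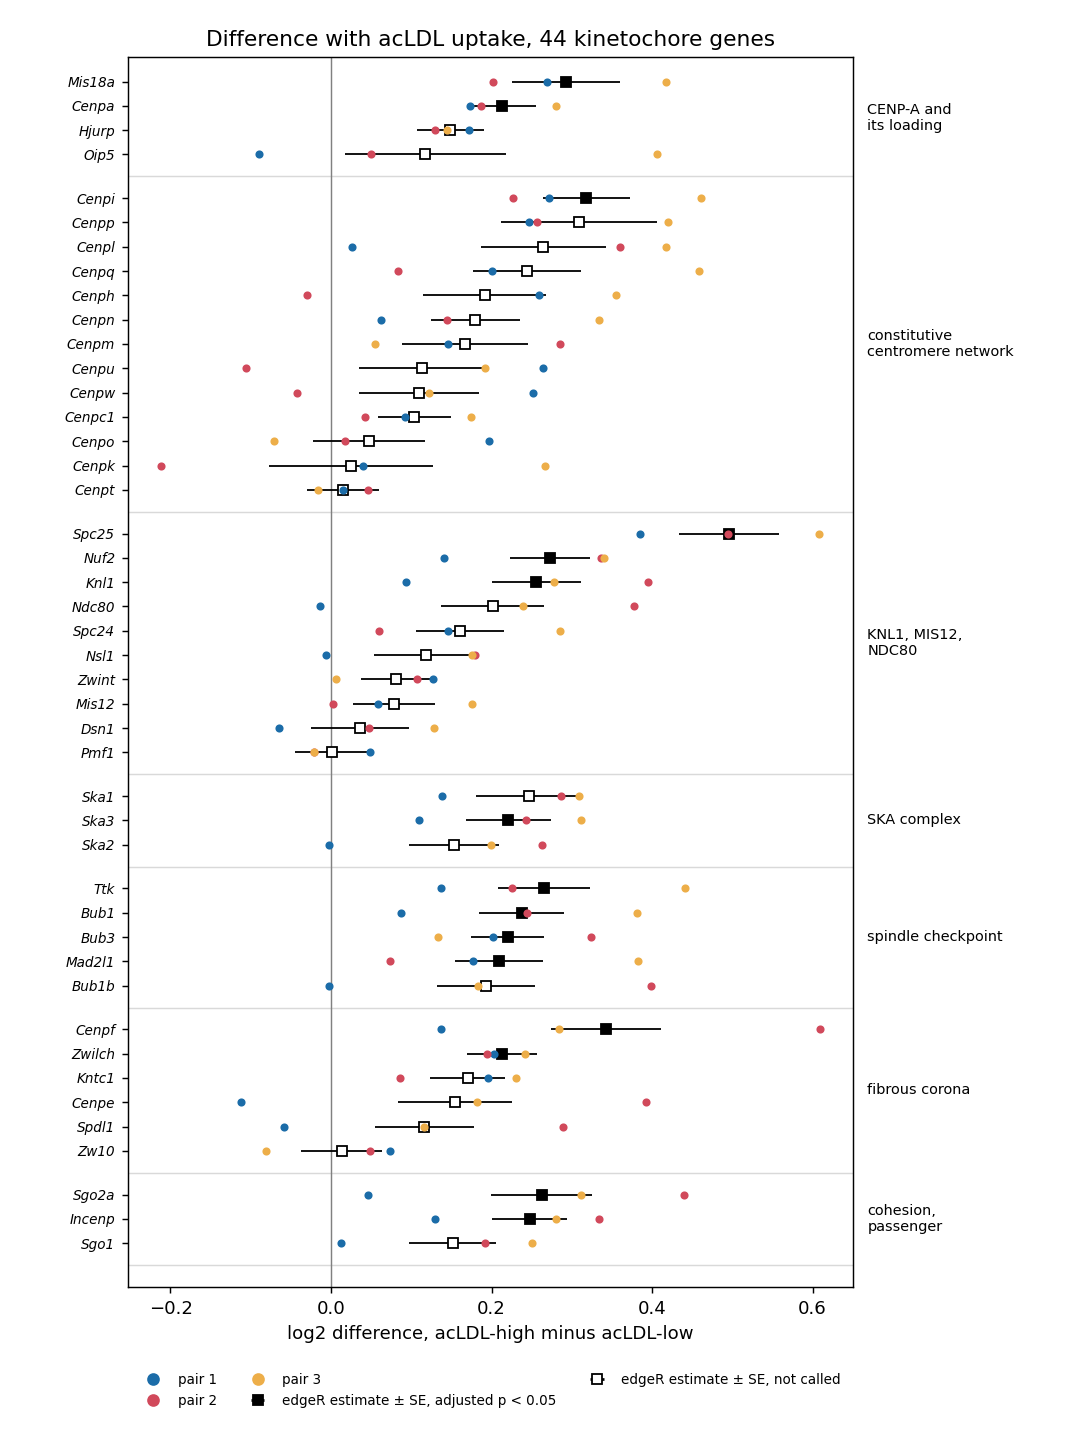
The log2 difference between acLDL-high and acLDL-low cells for each of the 44 genes by role, with the 3 pairs as colored points and the edgeR estimate ± SE as squares, filled where the adjusted p was under 0.05. Every square lies above 0, from 0.0013 for Pmf1 to 0.50 for Spc25, and the pairs of 1 gene are often farther apart than its SE.

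Among the outer kinetochore complexes, Spc25 had the smallest p-value and the largest log2 fold change of the 44 genes. Spc25 (ENSMUSG00000005233, chr2:69193895-69206194, minus strand) encodes a subunit of the NDC80 complex, the rod that binds microtubules, and sits at its inner end with Spc24. Spc25 measured 16.7, 19.0 and 13.8 CPM in acLDL-low replicates 1 to 3 and 21.9, 26.8 and 21.0 CPM in acLDL-high replicates 1 to 3. Every acLDL-high library lay above every acLDL-low library, which held for 1.23% of all genes tested. Spc25 rose by 0.50 ± 0.06 on the log2 scale (edgeR SE, n = 3 pairs, 41.0% higher), with an edgeR adjusted p of 0.000693. The 3 pairs gave 0.39, 0.50 and 0.61.

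Nuf2 (ENSMUSG00000026683, chr1:169497934-169531464), the partner of Ndc80 at the microtubule end of the rod, measured 56.4, 69.9 and 43.5 CPM in acLDL-low and 62.2, 88.3 and 55.1 CPM in acLDL-high cells. Replicate 2 was the highest in both groups, and the groups overlapped although every pair was higher in acLDL-high cells. Nuf2 rose by 0.27 ± 0.05 (edgeR adjusted p = 0.00819). Knl1 (ENSMUSG00000027326, chr2:119047119-119105501), the scaffold that recruits the BUB proteins, measured 57.5, 56.7 and 43.5 CPM in acLDL-low and 61.3, 74.6 and 52.7 CPM in acLDL-high cells. The groups overlapped, and the pair differences were 0.09, 0.40 and 0.28. Knl1 rose by 0.26 ± 0.06 (edgeR adjusted p = 0.0208).

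The other 7 outer kinetochore genes did not pass the test. Ndc80 itself had a log2 fold change of 0.20 (edgeR adjusted p = 0.101), with pair differences of -0.01, 0.38 and 0.24, and Spc24 had 0.16 (0.128). For the MIS12 complex, which ties KNL1 and NDC80 to the inner layer, the log2 fold changes were 0.12 for Nsl1, 0.08 for Mis12, 0.04 for Dsn1 and 0.0013 for Pmf1. Zwint, the KNL1 partner, had 0.08. For the 10 genes of the KNL1, MIS12 and NDC80 complexes together, the median was 0.14 and 6 were higher in all 3 pairs. The 4 NDC80 subunits thus ranged from 0.16 to 0.50, and whether they differed from each other was not tested.

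Of the 5 spindle checkpoint genes, 4 passed the test, and the median log2 fold change was 0.22. Bub3 (ENSMUSG00000066979, chr7:131560222-131571895), which carries Bub1 and BubR1 to KNL1, measured 107.7, 126.1 and 103.8 CPM in acLDL-low and 123.8, 157.9 and 113.9 CPM in acLDL-high cells. The groups overlapped, and replicate 2 was the highest in each. Bub3 rose by 0.22 ± 0.05 (edgeR adjusted p = 0.0165).

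Ttk (ENSMUSG00000038379, chr9:83834689-83872389), the MPS1 kinase that starts checkpoint signalling, measured 41.7, 43.9 and 29.3 CPM in acLDL-low and 45.8, 51.3 and 39.8 CPM in acLDL-high cells. Replicate 3 was the lowest in both groups, which overlapped. Ttk rose by 0.27 ± 0.06 (edgeR adjusted p = 0.0211), with 0.14, 0.23 and 0.44 in the 3 pairs. Bub1 (ENSMUSG00000027379, chr2:127801122-127831865), a kinase of the kinetochore and centromere, measured 79.7, 93.8 and 64.8 CPM in acLDL-low and 84.6, 111.1 and 84.4 CPM in acLDL-high cells. The groups overlapped, and the pair differences of Bub1 were 0.09, 0.24 and 0.38. Bub1 rose by 0.24 ± 0.05 (edgeR adjusted p = 0.0246). Mad2l1 (ENSMUSG00000029910), which encodes the MAD2 protein that binds CDC20, rose by 0.21 ± 0.05 (edgeR adjusted p = 0.0460), by 0.18, 0.07 and 0.38 in the 3 pairs. With library totals Mad2l1 was not called (adjusted p = 0.0597), and without replicate 3 its log2 fold change was 0.13. Bub1b, which encodes BubR1, had 0.19 (0.0994), with -0.0020 in pair 1 and 0.40 and 0.18 in pairs 2 and 3.

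**Figure D3:**
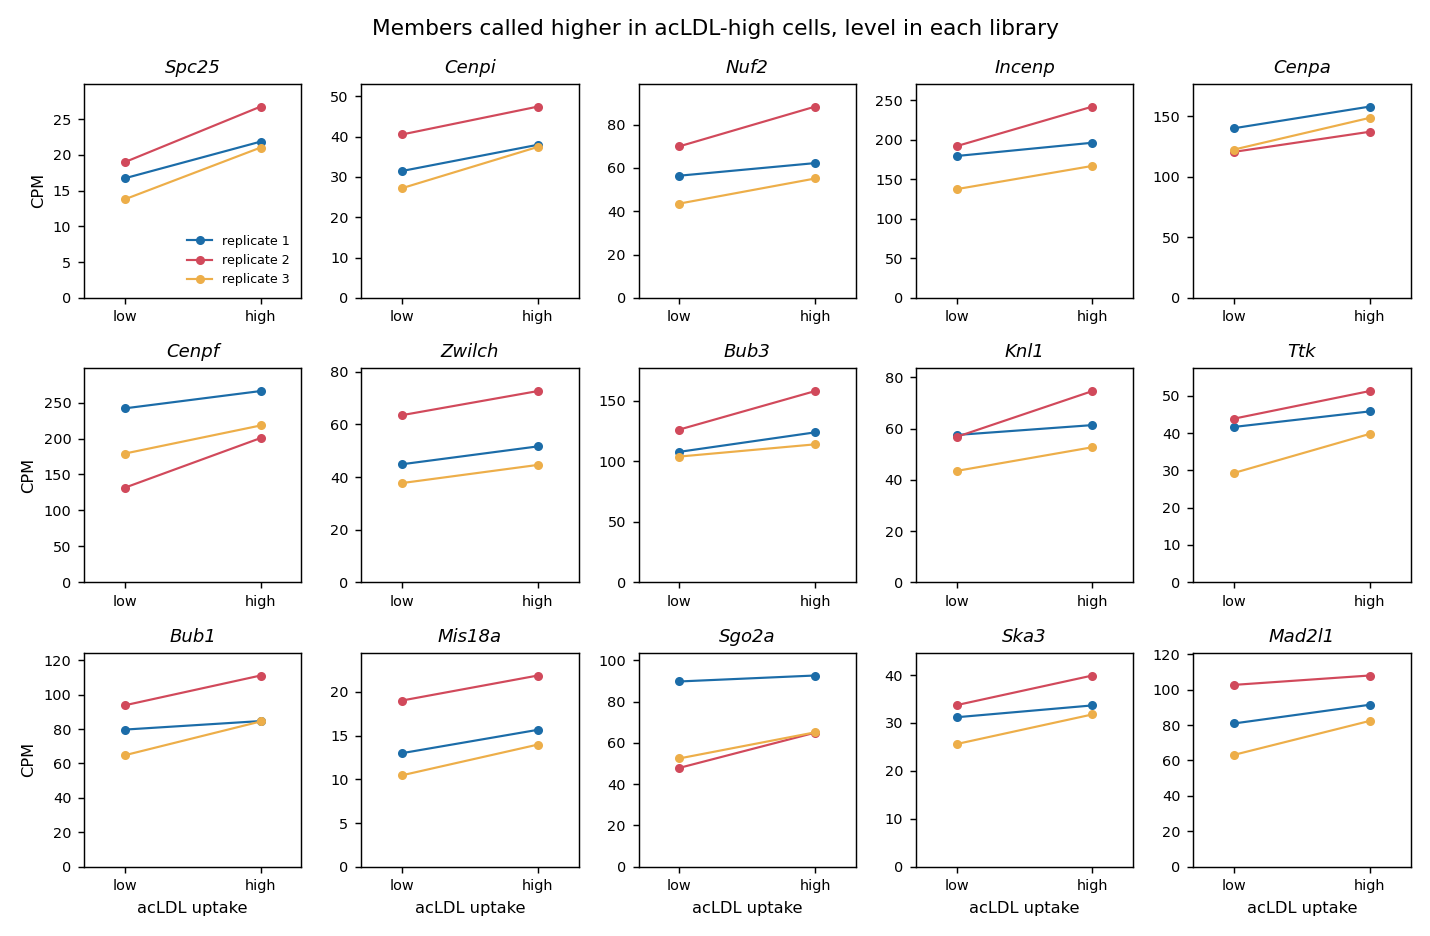
Level in CPM (y axes from 0) of the 15 genes that passed the test, with a line from the acLDL-low to the acLDL-high library of each replicate number. All 45 lines rise, and the distance between the lines of 1 gene is mostly larger than the rise.

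For CENP-A chromatin and its loading factors, 2 of 4 genes passed the test, with a median of 0.18 for the 4. Cenpa (ENSMUSG00000029177, chr5:30666777-30674830), the histone H3 variant that marks the centromere, measured 140.0, 120.5 and 122.4 CPM in acLDL-low and 157.9, 137.1 and 148.6 CPM in acLDL-high cells. The groups overlapped only between the highest acLDL-low and the lowest acLDL-high library. Cenpa rose by 0.21 ± 0.04 (edgeR adjusted p = 0.0127), with 0.17, 0.19 and 0.28 in the 3 pairs. Mis18a (ENSMUSG00000022978, chr16:90719312-90727404), a subunit of the complex that licenses centromeres for new CENP-A, measured 13.0, 19.0 and 10.5 CPM in acLDL-low and 15.7, 21.9 and 13.97 CPM in acLDL-high cells. The groups overlapped, and Mis18a rose by 0.29 ± 0.07 (edgeR adjusted p = 0.0268). Hjurp, the chaperone that deposits CENP-A, was the most counted of the 44 genes and had 0.15 ± 0.04 (0.0609), with 0.17, 0.13 and 0.15 in the 3 pairs. Oip5, the partner of Mis18a, had 0.12 (0.571), and 9.67% of its exon bases overlap those of Nusap1 on the other strand.

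In the constitutive centromere-associated network, the largest of the groups by role, 1 of 13 genes passed the test, while all 13 had a positive estimate. Cenpi (ENSMUSG00000031262, chrX:134308084-134362639), a member of the CENP-H/I/K/M complex, measured 31.5, 40.5 and 27.2 CPM in acLDL-low and 38.0, 47.5 and 37.5 CPM in acLDL-high cells. The groups overlapped through the acLDL-low replicate 2 library. Cenpi rose by 0.32 ± 0.05 (edgeR adjusted p = 0.00594), with 0.27, 0.23 and 0.46 in the 3 pairs.

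Its complex partners did not pass the test, with log2 fold changes of 0.19 for Cenph, 0.17 for Cenpm and 0.02 for Cenpk (edgeR adjusted p = 0.187, 0.271 and 0.930). Cenpc1, which binds the CENP-A nucleosome, had 0.10 (0.233). Cenpl and Cenpn, which form the CENP-L/N pair, had 0.26 (0.0752) and 0.18 (0.0919). Of the CENP-O/P/Q/U genes, Cenpq had 0.24 (0.0592), Cenpu 0.11 (0.472) and Cenpo 0.05 (0.777). Cenpp had 0.31 ± 0.10 (0.0988) and was the only gene besides Spc25 whose groups did not overlap, at 4.63, 4.59 and 4.07 CPM in acLDL-low and 5.49, 5.49 and 5.46 CPM in acLDL-high cells. Exons of Cenpu, Cenpo and Cenpp overlap genes of the other strand over 26.7%, 22.5% and 12.6% of their bases. The histone-fold genes Cenpt and Cenpw had 0.01 (0.903) and 0.11 (0.466). In the 13 genes of this network the pair medians were 0.20, 0.05 and 0.27, so that pair 2, not pair 1, was the lowest.

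In the fibrous corona, the outermost layer that forms on unattached kinetochores, 2 of 6 genes passed the test. Cenpf (ENSMUSG00000026605, chr1:189640606-189688086), a large coiled-coil protein, measured 242.0, 131.6 and 179.1 CPM in acLDL-low and 266.1, 200.7 and 218.2 CPM in acLDL-high cells. The groups overlapped, and replicate 1 was the highest in both. Cenpf rose by 0.34 ± 0.07 (edgeR adjusted p = 0.0136), by 0.14, 0.61 and 0.28 in the 3 pairs. The DESeq2 Wald test with the same block did not call Cenpf (0.35 ± 0.14, adjusted p = 0.168), nor did edgeR without replicate 3. Without replicate 2 its log2 fold change was 0.21 and it was still called. Zwilch (ENSMUSG00000032400, chr9:64137144-64173104), a subunit of the RZZ complex that recruits dynein, measured 44.9, 63.5 and 37.7 CPM in acLDL-low and 51.7, 72.7 and 44.6 CPM in acLDL-high cells. The groups overlapped, while the pair differences of Zwilch were close together at 0.20, 0.19 and 0.24. Zwilch rose by 0.21 ± 0.04 (edgeR adjusted p = 0.0154), and 5.93% of its exon bases overlap Lctl on the other strand. Of the other RZZ genes, Kntc1, which encodes ROD, had 0.17 (0.0575) and Zw10 had 0.01 (0.926). The kinesin gene Cenpe had 0.15 (0.255) and the dynein adaptor gene Spdl1 0.12 (0.335), both below 0 in pair 1 at -0.11 and -0.06.

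The SKA complex strengthens the grip of the NDC80 complex on microtubules, and 1 of its 3 genes passed the test. Ska3 (ENSMUSG00000021965, chr14:57806561-57826185) measured 31.2, 33.7 and 25.6 CPM in acLDL-low and 33.7, 39.9 and 31.8 CPM in acLDL-high cells. The groups overlapped, and Ska3 rose by 0.22 ± 0.05 (edgeR adjusted p = 0.0344), with 2.88% of its exon bases overlapping Sap18 on the other strand. With library totals Ska3 was not called (adjusted p = 0.0568). Ska1 had a log2 fold change of 0.25 (0.0532) and Ska2 of 0.15 (0.158).

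Of the genes for centromeric cohesion and the chromosomal passenger complex, 2 of 3 passed the test. Incenp (ENSMUSG00000024660, chr19:9872296-9899551), the scaffold of the passenger complex that holds the Aurora B kinase, measured 179.3, 191.8 and 137.4 CPM in acLDL-low and 196.1, 241.8 and 166.8 CPM in acLDL-high cells. The groups overlapped, with replicate 3 the lowest in both. Incenp rose by 0.25 ± 0.05 (edgeR adjusted p = 0.00983).

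Sgo2a (ENSMUSG00000026039, chr1:57995971-58025899), a shugoshin that protects cohesin at centromeres, measured 89.8, 47.9 and 52.5 CPM in acLDL-low and 92.7, 65.0 and 65.2 CPM in acLDL-high cells. Replicate 1 was the highest in both groups, which overlapped. Sgo2a rose by 0.26 ± 0.06 (edgeR adjusted p = 0.0324), by 0.05, 0.44 and 0.31 in the 3 pairs. It was not called with library totals (adjusted p = 0.0545) or without replicate 3. Without replicate 2 Sgo2a had 0.17 and was still called. Exons of Sgo2a overlap those of Kctd18 on the other strand over 35.0% of their bases, and Kctd18 had a log2 fold change of -0.12 (0.305). Sgo2b, a paralogous copy, had 0 counts in all libraries. Sgo1, the other shugoshin, had 0.15 (0.145). Over the whole set, 12 genes shared exon bases with a gene of the other strand, and 3 of these were called, with a median of 0.14. Of the 32 that shared none, 12 were called, with a median of 0.19. Whether these subsets differed was not tested.

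The sizes of the differences varied from pair to pair. The medians of the 44 genes were 0.13, 0.19 and 0.26 in pairs 1 to 3, and 36, 39 and 40 of the 44 were higher in the acLDL-high library. Of all 12572 genes tested, 6885, 5954 and 6263 were higher. Pair 1 gave the smallest difference for 23 of the 44 genes, pair 2 for 14 and pair 3 for 7. Over all genes tested these counts were 3664, 4718 and 4190. The 3 genes of centromeric cohesion and the passenger complex and the 3 SKA genes all had their smallest difference in pair 1, whereas pair 2 was the smallest for 7 of the 13 inner kinetochore genes. Whether the pairs differed was not tested.

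Most of the 44 genes differed between replicate numbers, as did most of all genes tested. In the same fit, 41 of the 44 genes differed between the 3 replicate numbers (adjusted p under 0.05), against 78.0% of all genes tested. The exceptions were Ndc80, Oip5 and Cenpp. The range of the 3 replicate means, each over both groups, ran from 0.09 for Ndc80 to 0.97 for Nsl1 on the log2 scale. It exceeded the difference with acLDL uptake in 40 of the 44, a count that was not made for all genes. A range of 3 means and a difference of 2 groups are unlike measures. The median range was 0.47 for the 44 genes and 0.45 for all genes tested, so it was not particular to the 44. For 35 genes the mean was highest in replicate 2, for 9 in replicate 1, among them Cenpa, Cenpf and Sgo2a, and for 0 in replicate 3. Over all genes tested the corresponding shares were 39.8%, 29.6% and 30.6%.

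Levels per exon length are in CPM per kilobase of exon (RPKM), over all annotated exons of a gene joined. The order of genes therefore depends also on the annotated length. Zwint had the highest median level of the 44 genes, at 52.7 RPKM and between 46.4 and 56.1 RPKM over the 6 libraries. Hjurp followed at 44.9 RPKM (38.6 to 64.4), Incenp at 42.9 RPKM (31.7 to 55.9) and Bub1b at 28.2 RPKM (19.6 to 35.4), with ranges that overlapped from each gene to the next. The lowest levels were 1.97 RPKM for Cenpp, 1.77 RPKM for Cenpo and 1.14 RPKM for Cenpk. Within the NDC80 complex the median levels were 11.9 RPKM for Spc24, 9.35 for Nuf2, 6.73 for Ndc80 and 6.27 for Spc25.

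**Figure D4:**
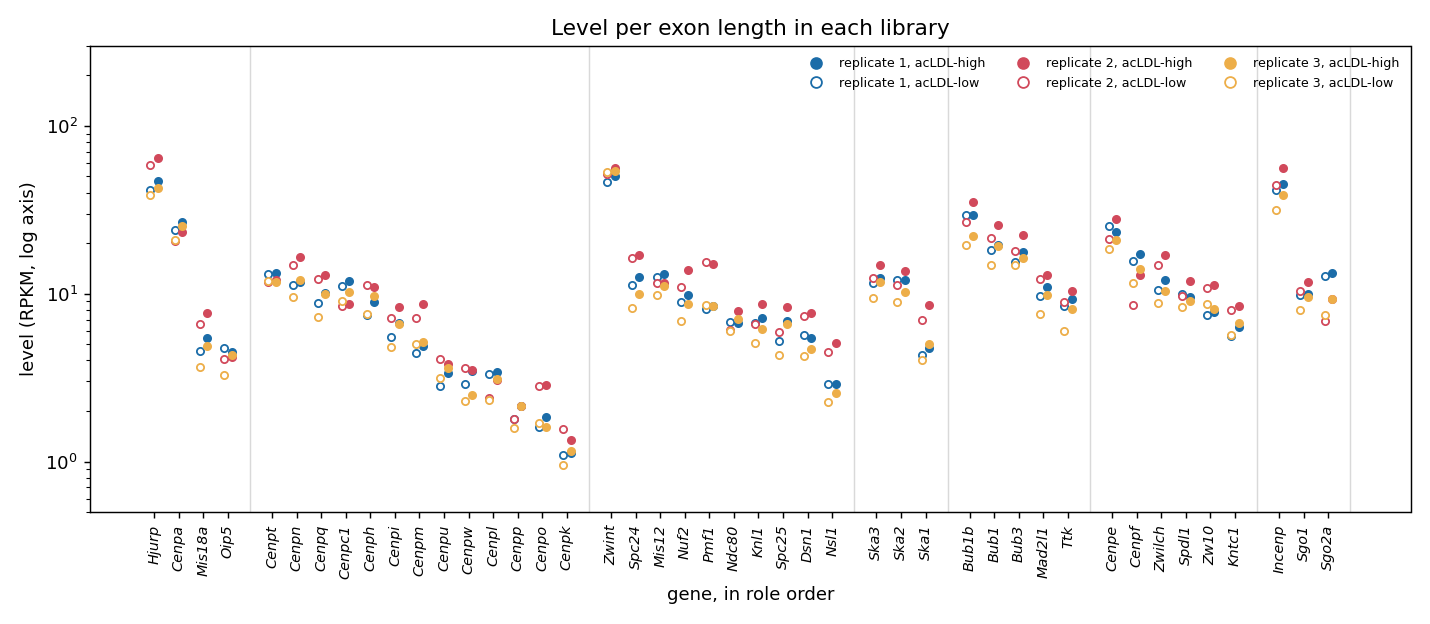
Level per exon length (RPKM, log axis) of the 44 genes in each of the 6 libraries, by role, with open points for acLDL-low and filled points for acLDL-high cells, colored by replicate number. Levels span from about 1 RPKM for Cenpk to over 50 RPKM for Zwint, and Spc25 and Cenpp are the genes whose filled points all lie above the open ones.

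Genes that work with the kinetochore were examined as lists beside the 44 genes. In these lists, genes counted as having risen or fallen are those that passed the test. Over all genes tested, 3.43% passed as higher. Of 22 kinetochore and checkpoint partners, 6 rose (27.3%) and 0 fell, with a median log2 fold change of 0.12. Aurkb, the Aurora B kinase held by Incenp, rose by 0.33 ± 0.04 (edgeR adjusted p = 0.000983), and Birc5, its partner survivin, by 0.22 ± 0.04 (0.00919). Knstrn, the kinetochore adaptor kinastrin, rose by 0.24 ± 0.05 (0.0144).

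Of 20 genes of the anaphase-promoting complex, its regulators and separase, the machinery that the checkpoint restrains, 3 rose (15%) and 0 fell. The median of this list was 0.04. Ube2c, the ubiquitin-conjugating enzyme of the complex, rose by 0.56 ± 0.05 (edgeR adjusted p = 0.000119). This estimate was above that of each of the 44 genes, the largest being 0.50 ± 0.06 for Spc25. Whether Ube2c and Spc25 differed was not tested. Fzr1, the late mitotic and G1 activator, rose by 0.28 ± 0.05 (0.00474), and Pttg1, the separase inhibitor securin, by 0.21 ± 0.05 (0.0187). Espl1, separase itself, had 0.23 (0.0927).

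Of 13 cohesin genes 1 rose (7.69%), the S phase acetyltransferase gene Esco2, by 0.20 ± 0.05 (edgeR adjusted p = 0.0357). The list median was 0.04. Of 16 genes of the DREAM and MMB complexes and NF-Y, 1 rose (6.25%), and the median was 0.04. That gene was Lin54, the subunit that binds the CHR, at 0.19 ± 0.05 (edgeR adjusted p = 0.0373). Each of these shares rests on 1 gene, beside 3.43% of all genes tested. Foxm1, a transcription factor of mitotic genes, had 0.09 (0.249).

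Of 24 S phase genes 0 rose and 1 fell, the replication licensing factor gene Cdt1, by 0.19 ± 0.05 on the log2 scale (edgeR adjusted p = 0.0458). An unadjusted edgeR p under 0.05 was found for 6 of the 24, and for 2435 of all 12572 genes tested. The median of the S phase list was -0.02, and its pair medians were 0.19, -0.21 and -0.03, so that it was above that of the 44 genes in pair 1 and below it in pairs 2 and 3. Whether any of these lists differed from the 44 genes was not tested. All 8 epithelial markers had a positive estimate, with a median of 0.11, and 1 rose, Cldn7, by 0.30 ± 0.06 (0.0101).

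**Figure D5:**
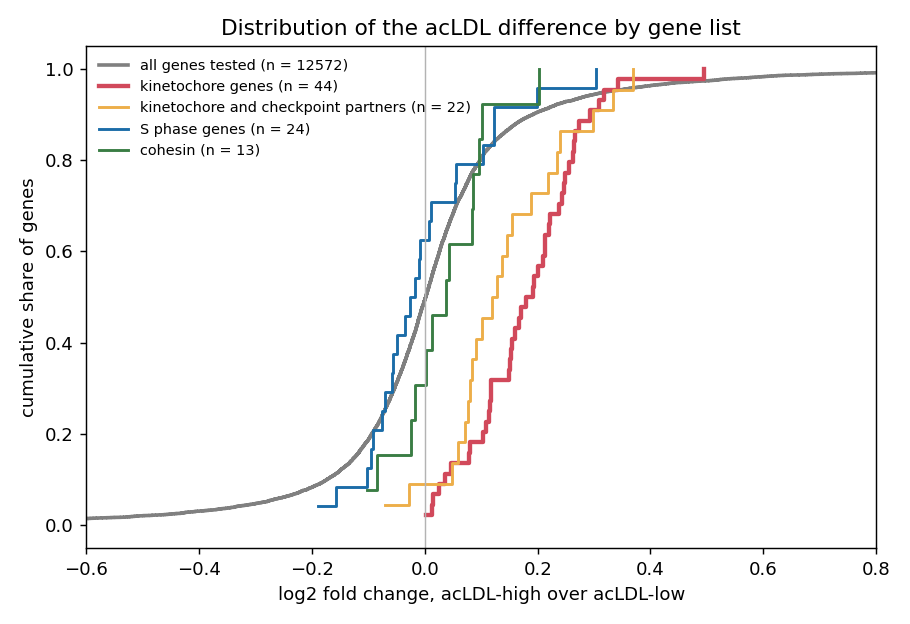
Cumulative share of genes (y axis) by log2 fold change, acLDL-high over acLDL-low (x axis, shown from -0.6 to 0.8), for all genes tested, the 44 genes, their partners, the S phase genes and cohesin. The curve of the 44 genes starts at 0 and reaches its median at 0.19, to the right of the other lists, with the S phase curve close to that of all genes.

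Among the 15 genes that passed the test, 13 had a promoter entry, and 9 of these (69.2%) held a CHR match in the 300 bases, as against 13 of 26 (50%) of the others. For CCAAT the order was the other way, with 8 of 13 (61.5%) and 20 of 26 (76.9%). Those with a CHR match included Spc25, Cenpa, Cenpf, Bub3, Knl1 and Ttk, whose sequences are printed above, and Bub1 and Ska3. Cenpi, Nuf2, Sgo2a and Mad2l1 held no CHR match in the 300 bases, and the match of Mis18a lay at -241. Within 50 bases of the start, the window chosen after the positions were seen, a match stood in 8 of 13 (61.5%) and in 9 of 26 (34.6%) of the others. These 9 were Kntc1, Hjurp, Cenpn, Ndc80, Bub1b, Sgo1, Spdl1, Cenpw and Oip5, with log2 fold changes from 0.11 for Cenpw to 0.20 for Ndc80. Pmf1 and Zw10, with log2 fold changes of 0.0013 and 0.01, held a match at -135 and -148. Whether the difference with acLDL uptake depends on the CHR was not tested.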

How the data were processed

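Libraries were stranded, poly(A)-selected mRNA libraries sequenced as paired-end reads of 50 bases. The authors aligned reads to mm10 with STAR (version 2.5.2a) and counted them with featureCounts (version 1.4.3-p1), versions as in the submitters' processing notes, and deposited raw counts per gene for 53379 gene IDs. The annotation release and strand setting are not given in the sources used here, and if counting ignored strand, reads of overlapping genes on opposite strands cannot be told apart. All per-sample columns were used. The deposited table of the authors' own comparison (DESeq2 version 1.20.0) holds a mean normalized count signal, a log2 fold change with its error, a Wald score and p-values. It was used only for its list of protein-coding genes, and none of its values are printed or compared.

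Counts were fitted with edgeR (version 4.0.16, R 4.3.3) on the genes passing filterByExpr, with TMM scaling, the quasi-likelihood test, the replicate number as a block and Benjamini-Hochberg adjustment. The standard error was obtained by dividing the log2 fold change by the root of the F statistic. Pair differences are differences of log2 CPM with a prior count of 2. The block follows the study's methods, and the replicate numbers come from the labels, which do not say that a number is an occasion: deviations from the group means correlated across genes at 0.795, 0.846 and 0.799 between libraries of the same number and at -0.557 to -0.0882 between different numbers. Deviations within a group cancel out by construction, so the negative values follow in part from the positive ones. Nothing names separate cultures. With the block, p-values measure how the difference within a pair varied from pair to pair of these sorts. In this fit each gene's variation is estimated partly from that of the other genes. The SE is therefore not the plain spread of a gene's own 3 pairs. Differences in level between replicate numbers are taken out by the block. A floor of 3 counts is 0.0318 to 0.0427 CPM and covers counting error only. The steps were tested on simulated data.

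Positions and exon lengths were those of GENCODE M21 (GRCm38, the same assembly as mm10), and promoters from RefSeq on GRCm38.p6. The members and lists were chosen with earlier results of these data known. Values in every library are given for the 14 members with the smallest p and the first in each role, and for Cenpp, which was added after its values were seen; of other lists up to 4 genes with the smallest p are named, except 1 that is not reported here. Promoters are printed for the 6 members with the smallest p and a CHR match. Alternatives were a fit without the block, DESeq2's size factors, scaling by library totals, DESeq2 (version 1.42.0), no filter on low counts, a minimum of 10 counts per library, a fit over the whole count table, a threshold of 0.01, and leaving out each replicate.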

Additional observations from a re-analysis of the deposited data

How the results depend on the processing

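Called counts depended on the replicate block, replicate 3 and the filter, while the median of the 44 genes stayed positive in each alternative run, at 0.14 to 0.23. Without the replicate block 0 of the 44 genes, 0 of the 95 genes in the other lists and 0 of all genes were called by edgeR, where 1 of the 44 and 45 of all genes had an unadjusted p under 0.05. With no filter on low counts 24 of the 44 and 932 of all genes were called, and at an adjusted p under 0.01, 4 of the 44, 5 of the 95 and 199 of all genes. Leaving out 1 replicate at a time gave 1 to 24 of the 44, 2 to 22 of the 95 and 126 to 869 of all genes, each lowest without replicate 3. The cause was not tested. The DESeq2 Wald test with the replicate block called 15, of which 14 were among the 15, the one lost being Cenpf. DESeq2's size factors or the whole count table called 19, and library totals called 12, without Ska3, Mad2l1 and Sgo2a. Log2 fold changes went below 0, without passing the test, for Cenpt, Pmf1 and Zw10 with library totals (-0.0040, -0.0166 and -0.0049), and in at least 1 fit that left out a replicate for Cenpo (-0.0232 to 0.1051), Pmf1 (-0.0205 to 0.0144), Zw10 (-0.0146 to 0.0621), Cenpt (-0.0028 to 0.0316), Oip5 (-0.0201 to 0.2278), Cenpk (-0.0890 to 0.1510) and Dsn1 (-0.0052 to 0.0870). Counts of the 44 genes were far above the floor of 3 counts.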
